A study of Mus musculus with 43 samples.

Results

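The comparison covers non-neoplastic colonic epithelium of mice with colitis that were fed 8 mg or 0 mg folic acid (FA) per kg of chow. It takes in the first of 2 sample sets, called the first cohort here, with 6 samples from mice on 8 mg FA (8ND) and 5 samples from mice on 0 mg FA (0ND), so 11 of the 43 samples of the series. Members were chosen by diet, tissue and sample set alone, and each sample came from a different mouse. Per the study's methods, female Swiss Webster mice, an outbred stock, received azoxymethane, a colon carcinogen, and then 4 cycles of dextran sulfate sodium in the drinking water, which damages the epithelium and causes colitis. Both groups share that treatment. All mice ate chow with 2 mg FA per kg until they were randomized at 11 weeks of age, after the first of these cycles, stayed on their diet for 16 weeks and were killed at 27 weeks. The 7 mice kept on 2 mg FA (2ND) served here to set each site's starting level. Epithelium was cut by laser microdissection from fixed, paraffin-embedded colon, so the samples held epithelial cells and whatever lay between them. The sites carry no gene names, so the tissue label could not be checked against marker genes.

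Folate carries the one-carbon units from which cells make S-adenosylmethionine, the methyl donor that DNA methyltransferases use to methylate cytosine at CpG. In mammalian DNA most CpGs that stand apart are methylated, whereas CpG islands, where CpGs crowd together at many promoters, are mostly free of methylation. In female cells one X chromosome is inactive and its CpG islands are methylated, so X-linked islands read at intermediate levels in a mixture of both X chromosomes. Folate deficiency and excess have both been studied in the colon because its epithelium divides quickly and needs methyl groups at every division.

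Methylation was measured by DREAM (digital restriction enzyme analysis of methylation). The enzyme SmaI cuts CCCGGG when its CpG is unmethylated, XmaI then cuts the remaining, methylated sites, and the ends of the sequenced fragments tell both apart. The deposited lists held 173449 mouse sites and 18 sites in spiked DNA standards. Comparison needed 20 reads or more at a site in each of the 11 libraries, and 13475 sites met this. Libraries held 1821380 to 16923453 reads on mouse sites in 0ND, and 1488920 to 13319841 reads in 8ND. The median depth at a compared site was 95 to 850 reads in the 0ND libraries against 74 to 690 reads in the 8ND libraries. Standards took 1.78 to 7.10% of reads in 0ND and 3.37 to 48.3% in 8ND, where mouse LC1841 stood at 44.8% and mouse LC1858 at 48.3%. Values are methylation percentages that the authors had adjusted to the standards, unless raw percentages are named. The adjustment multiplied the odds of methylation in each library by one factor, 1.30 to 4.04 in 0ND and 1.94 to 3.33 in 8ND, and every adjusted value lay within 0.0243 points of that rule. None of the 118 listed Y-linked sites reached the compared set, and they held 0 to 2 reads per library.

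Which sites differed between the diets was asked first. A site was called when its unadjusted two-sided p was below 0.05 in a two-group test with equal variances and the means of both groups lay over 5 percentage points apart. Of 13475 compared sites, 595 were called (4.42%), and 515 of them were lower in 8ND (3.82% of compared sites) and 80 higher (0.594%). The called lower sites were thus 86.6% of the calls. Their median difference was -12.7 points, and the median rise at the called higher sites was 9.28 points. Raw percentages gave the same sign as adjusted ones at all 595 called sites, but only 342 of the 595 were called in raw percentages as well, 321 lower and 21 higher. No single site passed correction for multiple testing. The smallest Benjamini-Hochberg adjusted p was 0.0771, against 747 sites with an unadjusted p below 0.05 (5.54% of the sites tested). Limma likewise gave 0 sites after adjustment, with a smallest adjusted p of 0.0529 and 798 sites at an unadjusted p below 0.05. In the mean over all compared sites 8ND stood at 13.8% ± 0.659 (SD, n = 6) and 0ND at 14.6% ± 0.402 (SD, n = 5). That difference of -0.77 points did not pass the two-sided exact permutation test over all 462 assignments of the libraries (p = 0.0563).

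The calls were spread unevenly over starting levels, where the starting level of a site is its mean in the 2ND mice. Of the compared sites, 9915 started below 5%, and none of them was called. A threshold of 5 points can hardly be met by a site that starts so low, and the median starting level of this class was 0.0471%, so the count of 0 says nothing about smaller changes there. Among the 827 sites that started at 5 to 20%, 82 were called (9.92%), and here the calls were mixed, 33 lower and 49 higher in 8ND. From 20% upwards the calls were nearly all lower. In the class of 20 to 50%, 152 of 911 sites were called lower and 23 higher. In the class of 50 to 80%, 236 of 841 sites were called lower and 4 higher, so 28.5% of this class was called. At 80% and over, 94 of 981 sites were called lower and 4 higher.

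The class means moved with the calls. At sites that started at 50 to 80%, the 8ND mice stood at 62.0, 62.1, 63.1, 65.6, 68.1 and 69.7% and the 0ND mice at 69.0, 69.9, 72.8, 73.1 and 73.7%. All 8ND mice but mouse LC1848 lay below every 0ND mouse. The mean was 71.7% ± 2.14 in 0ND and 65.1% ± 3.26 in 8ND, a difference of -6.61 points (two-sided exact permutation p = 0.00866, adjusted over the 5 classes p = 0.0433). The 2ND mice, whose values set the class, averaged 65.8% ± 3.28 there, close to 8ND. At 80% and over the 0ND mean was 93.3% ± 1.07 and the 8ND mean 90.8% ± 1.66, a difference of -2.56 points (exact permutation p = 0.0173, adjusted p = 0.0433). At 20 to 50% the 0ND mean of 35.6% ± 2.28 and the 8ND mean of 31.8% ± 3.29 differed by -3.79 points, short of the threshold (exact permutation p = 0.0628). Neither lower class differed beyond the spread between mice. Sites of 5 to 20% stood at 10.6% ± 1.91 in 0ND and 11.5% ± 1.91 in 8ND (exact permutation p = 0.489), and sites below 5% at 0.359% ± 0.134 and 0.403% ± 0.0803 (exact permutation p = 0.491). For all sites from 20 to 80% together the difference was -5.14 points (exact permutation p = 0.0216), and set against the sites below 5% within each library it was -5.19 points (exact permutation p = 0.0195). Raw percentages at the same sites had the same direction from 20% upwards, for example -8.96 points at 50 to 80%, but with a spread between 0ND mice of 11.1 points no class passed (exact permutation p = 0.104 for that class).

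**Figure D1:**
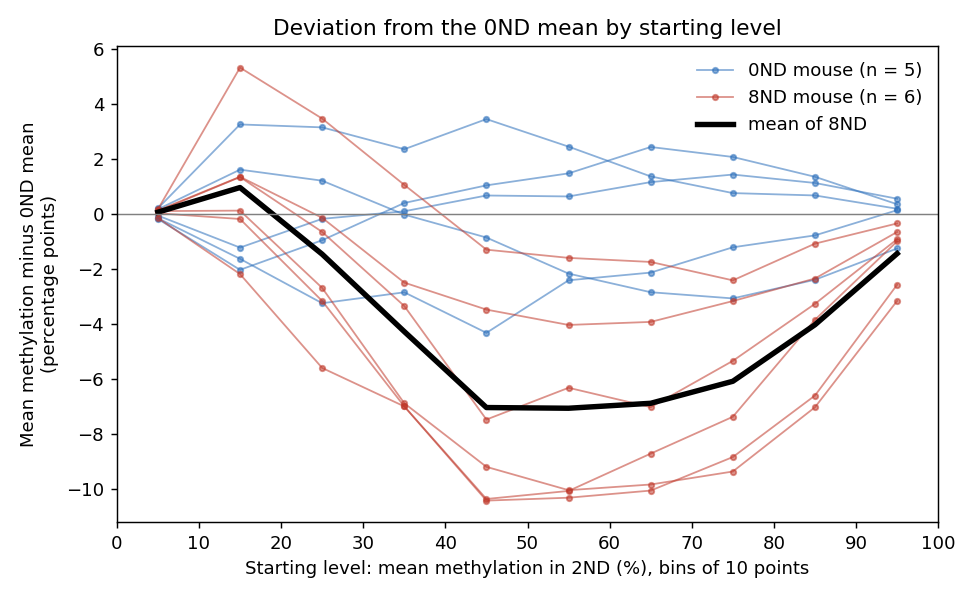
Each thin line is 1 mouse, plotted as its mean adjusted methylation minus the 0ND mean (percentage points, vertical axis) at sites grouped by starting level in bins of 10 points (horizontal axis, %), and the thick line is the 8ND mean. The 8ND mean lay 0.97 points above 0ND at 10 to 20%, fell to -7.07 points at 50 to 60% and came back to -1.44 points at 90 to 100%.

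In finer steps of the starting level, the mean difference was 0.97 points at 10 to 20%, -1.46 points at 20 to 30%, -4.28 points at 30 to 40% and -7.04 points at 40 to 50%. It then stayed between -7.07 and -6.08 points up to 80%. Mouse LC1848 lay above the 0ND mean up to 40% and below it from there on, whereas mouse LC1844 lay below it in every bin. The mice with many reads on standards, LC1841 and LC1858, were among the 3 lowest 8ND mice in the class of 20 to 80%, at 45.0% and 45.3%, but mouse LC1844 with 12.6% of its reads on standards stood at 45.0% as well. Without mice LC1841 and LC1858 the difference at 20 to 80% was -3.85 points (exact permutation p = 0.0556), and that at 50 to 80% still passed, at -5.08 points (exact permutation p = 0.0317).

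The spiked standards, DNA that never was in a mouse, moved with part of this pattern. Over all 18 standard sites the adjusted mean was 45.7% ± 0.530 in 0ND and 45.5% ± 0.242 in 8ND (exact permutation p = 0.494). By level, however, the 2 standard sites that read between 50 and 80% stood at 61.2% ± 2.71 in 0ND and at 56.7% ± 2.60 in 8ND, a difference of -4.41 points (exact permutation p = 0.0238). One of them, named Sla374_2, read 68.8% ± 4.10 in 0ND and 61.4% ± 3.05 in 8ND. The other, T353_1, read 53.5% ± 3.31 in 0ND and 52.1% ± 2.95 in 8ND, so most of the fall lay at Sla374_2. The mean of the 11 standard sites between 20 and 50% did not move that way, with a difference of 0.47 points (exact permutation p = 0.171). It averaged shifts in both directions, from -6.83 points at Sla341_3 to 3.21 points at Luc_2. The 3 sites at 80% and over differed by -0.41 points (exact permutation p = 0.0931). No single standard site passed the exact permutation test after adjustment over the 18 (smallest adjusted p = 0.182). The mouse sites were then set against the standards of the same class within each library, a comparison chosen after these values were seen. At 50 to 80% the difference at mouse sites minus that at the standards was -2.20 points, short of the threshold (exact permutation p = 0.24, adjusted over 4 classes p = 0.32). At 80% and over it was -2.14 points, past the threshold only before adjustment (exact permutation p = 0.0173, adjusted p = 0.0693), and at 20 to 50% the value relative to the standards was -4.26 points, short of the threshold (exact permutation p = 0.0628, adjusted p = 0.126). What part the shift of the standards had in the calls was not tested further.

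Since one odds factor per library carries raw to adjusted values, the gap between 2 classes in log2 odds (the log2 of methylated over unmethylated) barely depends on that factor. The gap, also chosen after the data were seen, was taken between the log2 odds of the class means within each mouse. Between 20 to 50% and 5 to 20% it was 2.02, 2.05, 2.22, 2.37 and 2.51 in the 0ND mice and 1.77, 1.80, 1.80, 1.85, 1.94 and 2.00 in the 8ND mice. The groups did not overlap. The difference was -0.38 (exact permutation p = 0.00216, the smallest that 462 assignments allow, and 0.013 adjusted over 6 gaps), and raw percentages gave -0.39 (exact permutation p = 0.00216). Between 50 to 80% and 5 to 20% the difference was -0.57 in adjusted values (exact permutation p = 0.00433) and -0.57 in raw values (exact permutation p = 0.00649). Between the classes of 80% and over and 50 to 80% the gap did not differ between the diets by more than the spread (-0.06, exact permutation p = 0.396). The 0ND mice with the smallest gaps, LC1807 and LC1817, also had the largest factors of that group, 3.02 and 4.04. In 8ND this was not so. There the largest factors, 3.33 in LC1856 and 3.14 in LC1830, went with gaps of 1.85 and 1.94 between 20 to 50% and 5 to 20%. The smallest, 1.77 in LC1848, went with a factor of 2.35. The standards had gaps that differed between the diets in the same direction, by -0.14 for 20 to 50% against 5 to 20% (exact permutation p = 0.63) and by -0.44 for 50 to 80% against 5 to 20% (exact permutation p = 0.0996). The gap of the mouse sites minus that of the standards did not differ between the diets beyond the spread, by -0.23 (exact permutation p = 0.314) and -0.13 (exact permutation p = 0.468).

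**Figure D2:**
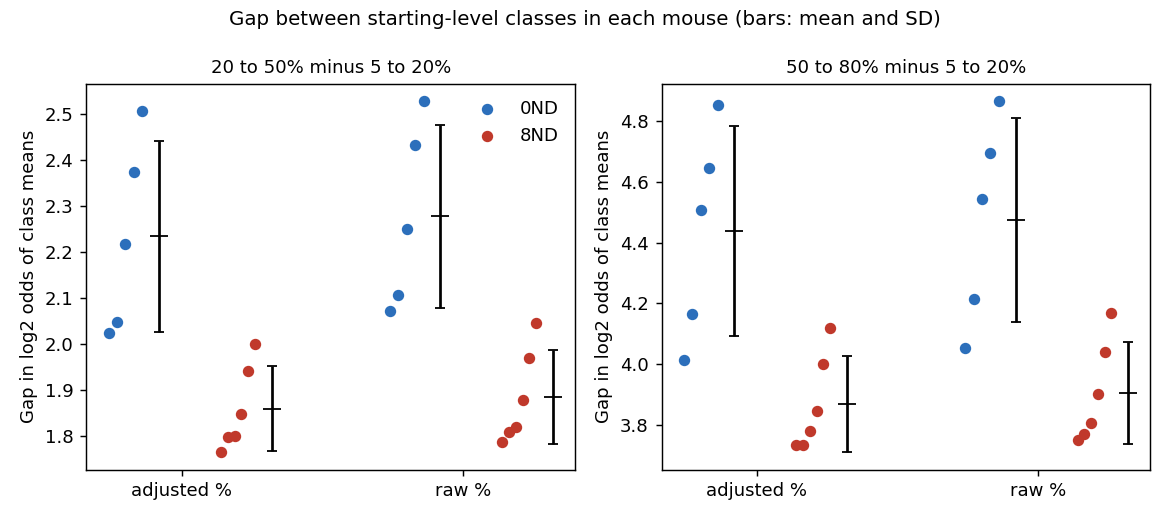
Gap in log2 odds between 2 classes of starting level, 1 point per mouse for 0ND (5 mice) and 8ND (6 mice), from adjusted and from raw percentages, with the group mean and SD as bars. For 20 to 50% against 5 to 20%, the adjusted gaps lay between 2.02 and 2.51 in 0ND and between 1.77 and 2.00 in 8ND.

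Local site density was asked next. Density was counted as the number of other listed CCCGGG sites within 1000 bases on either side. Of the 1807 sites with 5 or more such neighbours, 6 were called (0.332%), and of the 7073 sites with 2 to 4 neighbours, 154 were called (2.18%). Among the 4532 sites with 1 neighbour, 422 were called (9.31%), 377 of them lower. Of the 63 sites without a neighbour, 13 were called (20.6%), 11 of them lower. A DREAM fragment has a CCCGGG site at each end, and few compared sites stood alone. The mean difference was -2.60 points at sites without a neighbour (exact permutation p = 0.0195), -1.79 points with 1 neighbour (exact permutation p = 0.0325), -0.29 points with 2 to 4 (exact permutation p = 0.253) and -0.05 points with 5 or more (exact permutation p = 0.677). Adjusted over the 4 classes, the exact permutation p of each of the first 2 was 0.0649. Within each library, the difference at isolated sites was 2.55 points lower than that at sites with 5 or more neighbours (exact permutation p = 0.0152). This was 1 of 8 contrasts between classes made in percentage points, and its exact permutation p adjusted over them was 0.0635.

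Density and starting level went together. Of the sites with 5 or more neighbours, 93.9% started below 5%, against 49.4% of the sites with 1 neighbour and 28.6% of those with none. Density was therefore compared again among the 1752 sites that started between 20 and 80%, although level still fell with density there. The median starting level was 53.2% at isolated sites, 50.8% with 1 neighbour, 43.3% with 2 to 4 neighbours and 33.8% with 5 or more, and 33 of the 41 densest sites started at 20 to 50%. The called share was 50% of 24 isolated sites, 25.1% of 1176 sites with 1 neighbour, 20.7% of 511 sites with 2 to 4 neighbours and 4.88% of 41 sites with 5 or more. The mean difference was -6.02, -5.71, -4.05 and -2.07 points in the same order. The contrast of isolated with densest sites, -3.95 points, did not pass (exact permutation p = 0.104) and rested on few sites. With more sites in each class, sites with 1 neighbour differed by -1.80 points from those with 2 or more, which did not pass either (exact permutation p = 0.0758). At 50 to 80%, 174 of 596 sites with 1 neighbour and 56 of 224 sites with 2 to 4 neighbours were called lower.

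**Figure D3:**
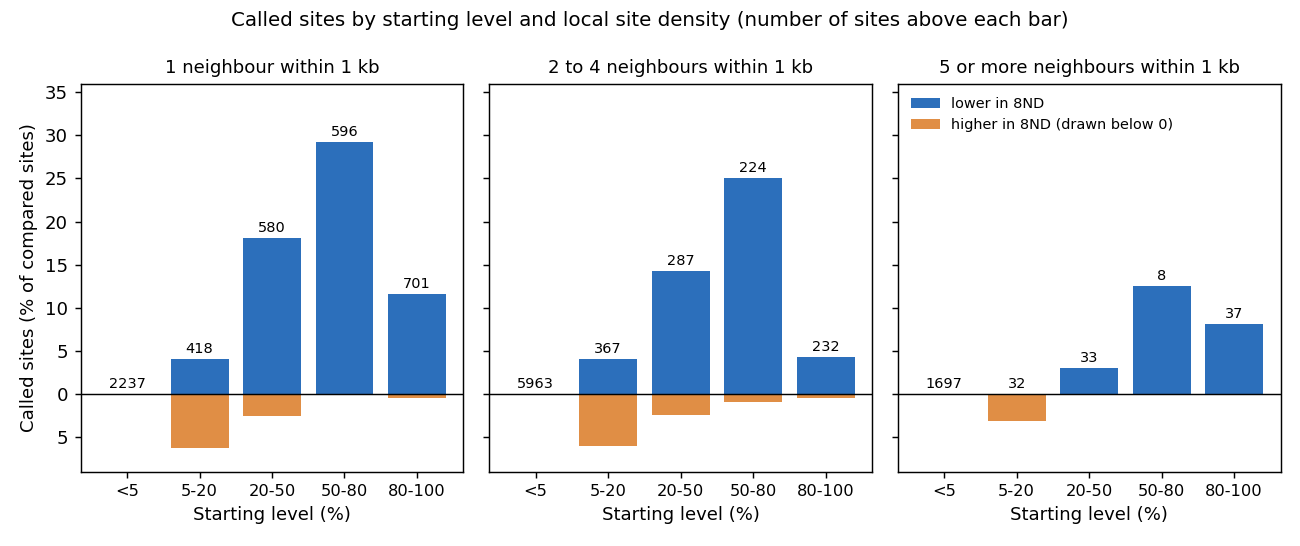
Share of compared sites called lower in 8ND (bars above 0, %) and higher in 8ND (bars below 0, %) by starting level (horizontal axis, %) and by the number of other CCCGGG sites within 1 kb (panels, without the 63 sites that had no neighbour), with the number of compared sites printed above each bar. With 1 neighbour the called lower share rose to 29.2% at 50 to 80%, and with 2 to 4 neighbours to 25%.

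Chromosomes were compared next. Every one of the 20 chromosomes with compared sites had a lower mean in 8ND (19 without LC1841 and LC1858, where chromosome 12 stood at 0.0126 points), and on each of them more sites were called lower than higher. On the autosomes, which held 364 to 1174 compared sites each, the mean difference ran from -0.19 points on chromosome 19 to -1.004 points on chromosome 8. The called share ran from 2.59% on chromosome 19 to 5.45% on chromosome 11. Unadjusted, 8 chromosomes passed the exact permutation test, and none did after adjustment over the 20 (smallest adjusted p = 0.115). Restricted to sites that started between 20 and 80%, 30 to 157 per chromosome, the difference ran from -1.58 points on chromosome 12 to -6.92 points on chromosome 14. Here 10 chromosomes passed the exact permutation test after adjustment (smallest adjusted p = 0.0325). The chromosomes were all read in the same 11 libraries, so their tests and directions are no independent observations. Chromosome 12 also had the most even split of calls, 9 lower and 8 higher of 503 sites. Whether single chromosomes differed from one another was not tested.

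The X chromosome had the highest called share. Of its 233 compared sites 26 were called (11.2%), all lower in 8ND, against 569 of 13242 autosomal sites (4.30%). The 8ND mice stood at 27.2, 30.8, 31.8, 32.2, 32.9 and 33.1% over the X-linked sites and the 0ND mice at 31.2, 33.6, 34.6, 35.3 and 35.9%, so that the groups overlapped. The difference came to -2.76 points (exact permutation p = 0.0455, adjusted over the chromosomes p = 0.115). The X had far more sites at intermediate levels, 64.4% between 20 and 80% against 12.1% of the autosomal sites, and 6.01% below 5% against 74.8%. The difference on the X minus that on the autosomes within each library was -2.03 points and missed the threshold (exact permutation p = 0.0887). Among sites of 20 to 80% the X differed by -3.23 points and the autosomes by -5.32 points, a contrast of 2.09 points (exact permutation p = 0.214), with 15.3% of X-linked and 24.5% of autosomal sites called. Levels were not equal within that class, since the median starting level was 29.2% on the X and 51.2% on the autosomes. At 20 to 50% the X differed by -2.48 points with 15 of 132 sites called (11.4%), and the autosomes by -4.01 points with 20.5% called, a contrast of 1.53 points (exact permutation p = 0.398). At 50 to 80% the order was the other way round. There the X differed by -8.74 points with 8 of 18 sites called (44.4%), and the autosomes by -6.57 points with 28.2% called, a contrast that was not tested.

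**Figure D4:**
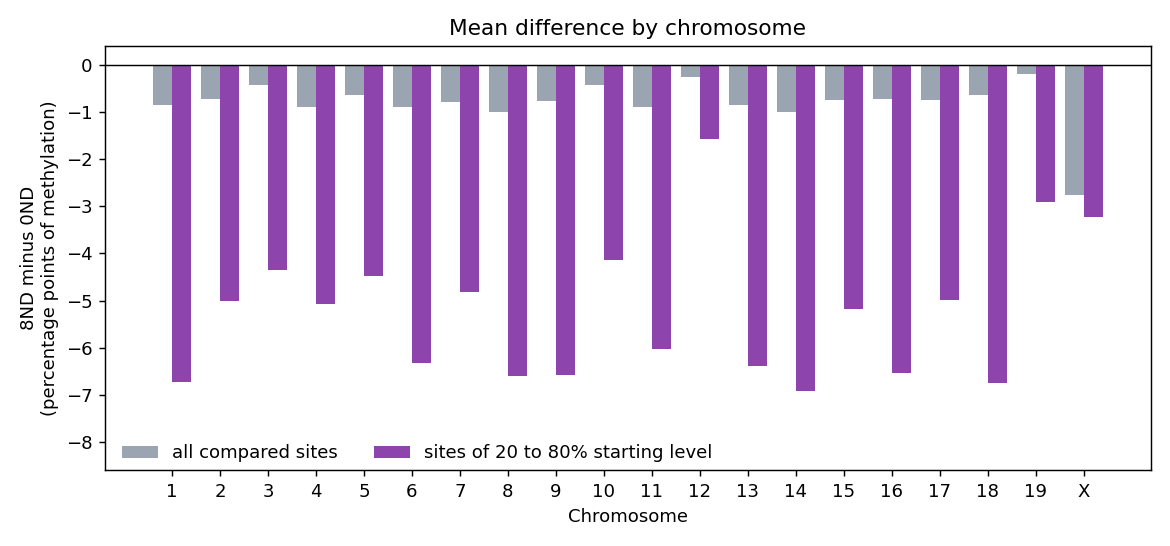
Mean difference in adjusted methylation, 8ND minus 0ND (percentage points, vertical axis), for each chromosome over all compared sites (grey) and over sites that started between 20 and 80% (purple). The X had the largest difference over all sites, -2.76 points, but at 20 to 80% stood at -3.23 points, closer to 0 than 17 of the 19 autosomes.

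Neighbouring sites changed together. Over pairs of adjacent compared sites 100 to 200 bases apart, both starting at 20% or more, the differences of the 2 sites correlated with Pearson's r = 0.736 (628 pairs). At 200 to 400 bases r was 0.738 (464 pairs), and at 10000 to 1000000 bases it was 0.0218 (333 pairs). It was weaker, over few pairs, at up to 100 bases (0.394, 40 pairs) and at 400 to 1000 bases (0.445, 14 pairs). These pairs are across sites of the same 11 libraries, and sites at the 2 ends of a fragment are read from the same molecules, so they are no independent observations. Calls were counted over pairs of any starting level. Of 203 pairs 100 to 200 bases apart with a call at either site, 76 had both sites called (37.4%), in the same direction in all 76. At 10000 to 1000000 bases this held for 12 of 507 such pairs (2.37%), in the same direction in 9. Joined within 1000 bases, the compared sites formed 5716 runs, of which 3739 held 2 sites. Calls fell in 450 runs, with 382 holding a site called lower, 69 holding a site called higher and 1 holding both. With each run averaged and tested once, 342 runs were called, 303 lower (88.6%) and 39 higher.

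Of the 1421 runs with 3 or more sites, only 3 held at least 3 sites called in one direction. Positions are on mm9, the build of the deposited site list, and no gene was assigned because no annotation of that build was used. The first lay on chr1:163350820-163351034, where all 3 sites were called. Averaged over them, 0ND stood at 79.3% ± 7.13, 8ND at 61.2% ± 10.0 and 2ND at 67.6%. At its last site, position 163351034, the 8ND mice read 37.4, 63.7, 67.2, 68.5, 69.2 and 71.7% and the 0ND mice 79.0, 80.2, 85.0, 86.9 and 87.3%. The groups did not overlap there in adjusted percentages but did in raw ones, and mouse LC1844 was the lowest by far. At the other sites of the run they overlapped in adjusted percentages too. At 163350820 the 8ND mice reached 65.09% and the 0ND mice began at 54.95%, and at 163351001 these values were 84.95% and 69.65%. The second lay on chr6:127356244-127356561 with all 3 sites called, at 52.2% ± 2.73 in 0ND and 38.9% ± 6.80 in 8ND, and 40.6% in 2ND. Its sites differed widely in level within 318 bases, with 0ND means of 57.2, 74.9 and 24.4%. The last lay on chr13:53330090-53331481, where 3 of 4 sites were called lower. Its first pair of sites stood at 80.4% and 68.1% in 0ND and fell by 10.5 and 18.0 points. The site at 53331279 fell by 5.21 points from 23.0%. The fourth, at 53331481, was not called and read 11.3% in 0ND and 14.6% in 8ND. This run rested on weak calls, since the site at 53331279 lost its call in 10 of 13 alternatives (raw percentages, without LC1841 and LC1858 together, or without single mice) and that at 53330090 in 9, which leaves fewer than 3 called sites. In the chr1 run the site at 163351001 lost its call in 8 of the 13.

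Of the 595 called sites, 112 of those lower and 8 of those higher in 8ND had groups that did not overlap at all. Over all compared sites, 130 did not overlap (0.965%), 119 of them lower. Only 35 called sites kept the groups apart in raw as well as in adjusted percentages, 33 lower and 2 higher, and the largest of these are given as examples. They were chosen for their size, so their values describe and do not test. The largest fall, on chr17:80548491-80548491, had 0ND mice at 45.8, 56.1, 58.6, 66.3 and 70.1% and 8ND mice at 16.8, 18.0, 20.3, 24.0, 25.8 and 26.8%. The means were 59.4% ± 9.45 and 21.95% ± 4.16, with 46 to 427 reads per library, and 2ND stood between them at 32.3%. At chr6:50328454-50328454 methylation fell from 67.5% ± 10.1 to 32.9% ± 9.82, and the 2ND mean was 42.4%. At chr11:98973678-98973678 it fell from 79.8% ± 4.51 to 48.8% ± 12.2, with 174 reads or more in each library. The 8ND mice there split into 35.7, 37.3 and 40.9% on one side and 55.7, 59.7 and 63.4% on the other, with all 0ND mice at 74.6% or more.

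The remaining large falls lay at chr7:120327891-120327891 with -30.3 points, chr6:121474836-121474836 with -29.9 points and chr10:82467037-82467037 with -28.5 points. Each of these 6 sites had 1 other CCCGGG site within 1000 bases. At chr6:121474836-121474836 the 8ND mice read 0 to 27.8% and the 0ND mice 35.3 to 58.1%, with 24 reads in the shallowest library. The 2 rises were small and started low. At chr8:108218020-108218020 the 0ND mice read 0 to 4.96% and the 8ND mice 7.18 to 12.6%, a rise of 7.34 points. At chr14:112074653-112074653 the means were 2.65% ± 2.39 and 8.83% ± 2.40, a rise of 6.17 points. In raw percentages both rises were below 5 points, at 3.49 and 2.99, and were not called. By starting level, the largest called difference at 5 to 20% was a fall of 20.7 points at chr4:135122998-135122998. The mean there was 35.9% ± 9.12 in 0ND, 15.2% ± 4.56 in 8ND and 19.1% in 2ND. At 50 to 80% it was a fall of 33.4 points at chr4:139078272-139078272, and at 80% and over a fall of 17.7 points at chr4:132826788-132826788.

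**Figure D5:**
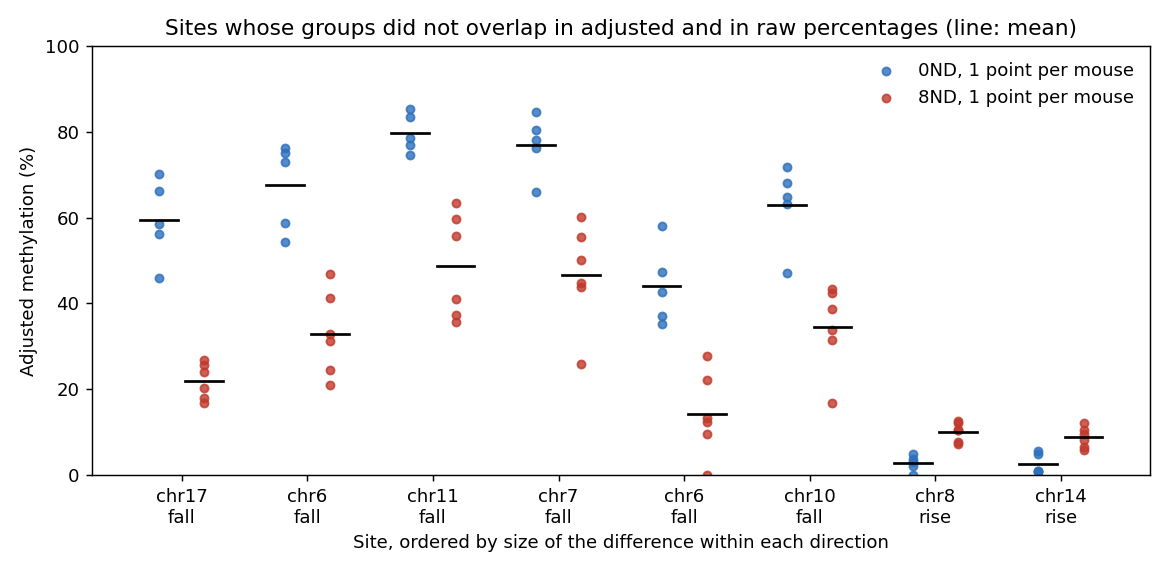
Adjusted methylation (%, vertical axis) in each mouse at the 6 largest falls and the 2 rises among called sites whose groups did not overlap in adjusted and in raw percentages, ordered by size, 0ND in blue, 8ND in red, with the group mean as a line. At the chromosome 17 site the 8ND mice lay between 16.8 and 26.8% and the 0ND mice between 45.8 and 70.1%.

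The spread between mice was set beside that of counting. At sites of 20 to 80% the median SD between mice was 8.34 points in 8ND and 7.65 points in 0ND. In raw percentages it was 7.41 and 11.0 points, against 3.81 and 3.57 points from the counting of reads alone. Called sites had a median of 207 reads in 8ND and 253 in 0ND, and all sites of 20 to 80% had 192 and 240.

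The mice on 2 mg FA were set beside both groups with classes taken from the 8ND and 0ND means, so that their own values did not choose the sites. At 50 to 80%, over 788 sites with 20 reads in all 7 2ND libraries too, the means were 69.5% ± 2.24 in 0ND, 63.5% ± 3.10 in 2ND and 62.5% ± 3.53 in 8ND. At 80% and over they were 92.6% ± 1.22, 89.4% ± 1.91 and 89.8% ± 1.74. At 20 to 50% they were 34.5% ± 2.43, 32.4% ± 1.61 and 31.2% ± 3.35. In all 3 classes the 2ND mean lay nearer to the 8ND mean than to the 0ND mean, and whether 2ND differed from either group was not tested here. At 80% and over 2ND lay below both groups. At 5 to 20% it lay above both, at 12.5% ± 1.03 against 11.3% ± 2.03 in 0ND and 12.0% ± 2.03 in 8ND. Classes taken from 8ND and 0ND values can by themselves place another group nearer the middle of the scale, which was not tested. At the 515 sites called lower, 2ND was below the 0ND mean at 507 and between both means at 419. These sites were chosen for a high 0ND and a low 8ND mean, so another group's value tends to fall between them, and at the 1337 uncalled sites of 20 to 80% 2ND was below the 0ND mean at 878 and between both at 492. At the 80 sites called higher, chosen in the same way, it lay between both means at 71.

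In the second sample set, with 6 samples on each diet, 3 of the 0ND and 5 of the 8ND mice were sampled again, so it is not independent of the first. The study profiled epithelial cells and also epithelium plus lamina propria, and the sample titles do not tell which this set held. Standards took 6.98 to 52.7% of its reads in 0ND and 8.85 to 47.2% in 8ND, and were not set beside its sites here. With the same classes of starting level, methylation at 50 to 80% was 69.4% ± 2.21 in 0ND and 64.7% ± 3.28 in 8ND, a difference of -4.76 points over 601 sites (exact permutation p = 0.0173). At 80% and over the difference was -1.83 points (exact permutation p = 0.013), and at 20 to 50% it was -3.54 points (exact permutation p = 0.0844). The gap in log2 odds between 20 to 50% and 5 to 20% did not differ there beyond the spread (-0.12, exact permutation p = 0.392). Site by site, 296 of the 515 sites called lower had the reads needed, and 230 of them (77.7%) were lower in 8ND again, with a median difference of -5.62 points where the first set had -11.9 points. Sites of 20 to 80% that had not been called were lower at 513 of 795 (64.5%), with a median of -2.68 points. Of the sites called higher, 47 had the reads needed, and 20 of them were lower in the second set, with a median difference of 0.52 points. Samples of the same mouse in both sets were no closer than samples of different mice in 8ND, with mean absolute gaps of 15.3 points over 5 pairs and 14.8 points over 31 pairs at 1032 sites. In 0ND these gaps were 10.2 points over 3 pairs and 12.0 points over 27 pairs. Mice sampled in the second set alone were 3 on 0 mg and 1 on 8 mg FA, so that values from them rest on a single 8ND mouse. In the library of that mouse, number 1800, standards took 36.5% of the reads. With these mice the median difference was -5.80 points at the sites called lower and -7.67 points at the uncalled sites of 20 to 80%. It was -9.97 points at the sites called higher, where the first set had a rise. At the uncalled sites of 5 to 20% it was -4.55 points, where the first set had 1.03 points.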

How the data were processed

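DREAM libraries were made from microdissected epithelium and sequenced on an Illumina HiSeq. The authors deposited, for each library and CCCGGG site, the counts of methylated, unmethylated and total reads, the raw percent methylation and the percent adjusted to the spiked standards. The submitters' processing notes name Bowtie2, SAMtools and mm9, without versions. The study's methods name the human genome as the target of mapping, whereas the deposited site names and positions are of mm9, which was used here. The 13 polyp samples were not used.

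A site entered the comparison with 20 or more reads in each of the 11 libraries. Calls used Student's pooled-variance test, two-sided, on adjusted percent (p below 0.05, difference above 5 points), the study's criteria. Class values were unweighted means over sites within each library, tested by two-sided exact permutation over the libraries, 1 per mouse. The starting level was the mean of the 2ND libraries with 20 reads or more (at least 3 of 7). Named regions were runs of sites within 1000 bases holding 3 or more calls in one direction (at most 6). Named sites outside these regions were the 6 largest called falls and the 6 largest rises without overlap in adjusted and raw percent, 1 per 1000 bases (2 rises existed), and the largest call of each level class. Chromosome 18 was left out of the naming. Classes, rules and the comparison itself were chosen with earlier results of these data known. Python 3.11.15, numpy 2.4.6, scipy 1.17.1, pandas 2.3.3 and, in R 4.3.3, limma 3.58.1 were used, and the calculations were tested on simulated data. Read numbers speak for counting error only, since PCR copies are not independent molecules.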

Additional observations from a re-analysis of the deposited data

Results flagged for a closer look

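Among 72 sets of values (the values of 1 group over its mice), 3 held a mouse that lay far from the rest of its group. Chance gives about 1 in 20, so these were no more frequent than that, and the sets share the same mice. At chr1:163351034, mouse LC1844 of 8ND read 37.4% and the other 8ND mice 63.7 to 71.7%. At chr6:127356407, mouse LC1848 of 8ND read 75.6% and the others 61.9 to 66.2%, so that it lay among the 0ND mice. At chr4:139078272, mouse LC1817 of 0ND read 58.6% and the others 70.3 to 74.8%. Mouse LC1844 had the fewest reads of the 11 libraries, and at chr1:163351034 the shallowest library had 22 reads.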

How the results depend on the processing

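No paired analysis was possible because the 8ND and 0ND samples of the first cohort came from different mice. For classes and contrasts, a call in this section is an exact permutation p below 0.05 without adjustment. With raw percentages the differences kept their sign and lost their call (exact permutation): -6.46 points at 20 to 80% (p = 0.123), -6.47 against sites below 5% (p = 0.123), -8.96 at 50 to 80% (p = 0.104), -4.56 at 80% and over (p = 0.128), -3.22 for isolated minus clustered sites (5 or more neighbours; p = 0.139), -2.43 for 1 neighbour minus clustered (p = 0.13) and -3.72 for mouse sites minus standards at 80% and over (p = 0.0606). The cause was not tested. Without mice LC1841 and LC1858, whose standards took over 30% of reads, the calls were lost at 20 to 80% (-3.85, exact permutation p = 0.0556), for 1 neighbour minus clustered (-1.19, p = 0.0714) and for sites minus standards at 80% and over (-1.38, p = 0.0556), with fewer samples. The mean over all sites passed with a minimum of 10 reads (-0.90, exact permutation p = 0.0498). Isolated minus clustered sites lost its call with medians over sites (-1.46, exact permutation p = 0.539). Within 20 to 80% it gained one by the exact permutation test with 50 reads (-6.61, p = 0.00433), with the level taken from 0ND (-5.52, p = 0.0433) and with neighbours within 5000 bases (-5.15, p = 0.0238). X minus autosomes turned to 2.09 at 20 to 80% (exact permutation p = 0.214).

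The called share was 2.79% with 50 reads, 2.92% above 10 points and 0 after Benjamini-Hochberg adjustment. The lower share of calls was 94.1% in raw values, 82.2% with 50 reads, 74.9% without mice LC1841 and LC1858, 72.3% in a quasi-binomial model of reads (whose p-values were too small on simulated data), 78.9% with each library centred on its mean, 90.9% above 10 points and 82.6% with no minimum difference.

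Leaving out 1 mouse at a time gave -0.97 to -0.62 points for all sites (past 0.05 without mouse LC1848 or LC1820), -6.12 to -4.59 at 20 to 80%, -6.16 to -4.65 against sites below 5%, -7.51 to -5.99 at 50 to 80% and -2.99 to -2.10 at 80% and over. It gave -3.13 to -1.97 for isolated minus clustered (lost without mouse LC1817) and -5.98 to -2.86 within 20 to 80% (past 0.05 without mouse LC1844). It gave -2.14 to -1.51 for 1 neighbour minus clustered and -2.29 to -1.26 for 1 minus 2 or more within 20 to 80% (past 0.05 without mouse LC1807). X minus autosomes ranged from -2.65 to -1.32 (past 0.05 without mouse LC1820). Sites minus standards ranged from -5.42 to -3.40 at 20 to 50% (past 0.05 without mouse LC1848 or LC1820), -3.50 to -1.08 at 50 to 80% (past 0.05 without mouse LC1807) and -2.55 to -1.76 at 80% and over. The log2 odds gaps ranged from -0.43 to -0.31 and from -0.67 to -0.46, the called share from 3.21 to 4.80% and its lower part from 78.3 to 91.5%. All 20 chromosomes stayed lower without any single mouse, and 19 without LC1841 and LC1858. Of 13 alternatives per named site, calls were lost in 10 at chr13:53331279, 9 at chr13:53330090, 8 at chr1:163351001, 3 at chr1:163350820, 3 at chr6:127356561 and 1 at chr6:127356244, and in raw percentages alone at both rises. The 6 falls kept theirs in all 13. They were chosen for size and for groups apart in adjusted and raw percentages, so this is no check on them.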

Other observations

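X-linked sites that started at 5 to 20% were mostly lower in 8ND. Over 46 such sites 0ND stood at 16.5% ± 1.30 and 8ND at 14.0% ± 2.26, a difference of -2.49 points (two-sided exact permutation p = 0.0346, adjusted over 18 classes p = 0.0779), and 80.4% of them were lower in 8ND. Both sites called there were lower. Over the 827 sites of this level on all chromosomes 39.2% were lower. Whether the X differed from the autosomes at this level was not tested.

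Methylated sites in dense surroundings were few. Of 37 sites with 5 or more neighbours that started at 80% or over, 3 were called, all lower, and 91.9% were lower in 8ND. Their means were 95.4% ± 0.889 in 0ND and 92.3% ± 1.86 in 8ND, a difference of -3.06 points (two-sided exact permutation p = 0.0108, adjusted over 20 classes of level and density p = 0.0758).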
